A study of Mus musculus with 20 samples.

Results

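The inhibitory and Fc-receptor-like genes of B cells were followed across cell classes, genotypes and tissues. The 8 genes, of 31053 in the count tables, were listed by name, with no measured value in the rule, although earlier results of these data were known when the list was drawn up: Fcrl1, Fcrl5, Fcrla, Fcgr2b, Siglecg, Cd22, Cd72 and Lair1. Single-cell RNA-sequencing was made from unselected live cells of 13 C57BL/6N mice in 20 libraries, each library being 1 tissue of 1 mouse. There were spleens of 5 Eµ-PRMT5 mice, 4 Eµ-TCL1 mice and 4 mice with both transgenes (Eµ-PRMT5/TCL1), and sub-mandibular lymph nodes from 3 Eµ-TCL1 and 4 Eµ-PRMT5/TCL1 mice whose spleens were also sequenced. Eµ-PRMT5 mice carry human PRMT5, an arginine methyltransferase, and Eµ-TCL1 mice carry human TCL1, an oncogene used to model chronic lymphocytic leukemia (CLL). Both cDNAs are driven in B cells by an immunoglobulin heavy chain promoter and the µ enhancer, and Eµ-PRMT5/TCL1 mice hold both. No non-transgenic mouse was analysed here, ages are not given in the labels, and tissues were taken at euthanasia criteria. The paper reports the longest median survival for Eµ-PRMT5 mice and the shortest for Eµ-PRMT5/TCL1 mice among the genotypes used here. Genotype and age at sampling therefore cannot be told apart in the comparisons of genotypes below. Eµ-PRMT5 spleen 3 came from a founder animal. Human transgene RNA was not read from these mouse tables, so the genotype labels were not checked with it.

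Inhibitory receptors of B cells carry tyrosine motifs in their tails that, once phosphorylated by the kinase Lyn, recruit the phosphatases SHP-1 (Ptpn6) or SHIP (Inpp5d) and dampen the signal of the B cell receptor. Fcgr2b binds the Fc part of IgG, Cd22 and Siglecg bind sialic acids, Cd72 is a lectin-like receptor and Lair1 binds collagen. Fcrl5 carries both activating and inhibitory motifs and is known from marginal zone and B1 B cells, Fcrl1 is a B cell surface protein described as co-activating, and Fcrla is an intracellular relative that binds immunoglobulins in the endoplasmic reticulum.

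A level is given here in CPM, the molecules (UMIs) of a gene per 1000000 UMIs of all cells of that class in a library. Of 84231 cells kept, 37879 were B cells (280 to 5067 per library), 4148 plasma cells and 28824 T cells. Classes came from marker genes that hold none of the 8 genes. Total UMIs per library ranged from 9348094 to 72440894, and pairs of libraries shared a median of 0.687% and at most 1.31% of cell barcodes. Eµ-PRMT5 spleen 4 stood apart from the rest: its B cells had a median of 18446 UMIs, the next library 12527.5, and their levels of all 7 B cell markers were the lowest of the 20 libraries, with Cd79a at 485 CPM (next lowest 1482) and Ebf1 at 2.31 CPM (next lowest 61.6). For B cell comparisons of Eµ-PRMT5 spleens with other genotypes, values of some genes are given with and without it. Genotype comparisons of myeloid and plasma cells include it, apart from sign changes listed at the end. The correlations over libraries include it too.

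Fcrl1 and Fcrl5 lie on chromosome 3 on the same strand with 32838 bases between them (Fcrl1 at chr3:87376387-87402934 and Fcrl5 at chr3:87435773-87500678, GRCm38, GENCODE vM21). Fcrla and Fcgr2b lie on the minus strand of chromosome 1 with 31033 bases between them (chr1:170917576-170927583 and chr1:170958617-170976547). Siglecg, Cd22 and Lair1 are spread along chromosome 7 (chr7:43408204-43418358, chr7:30865402-30880342 and chr7:4003402-4063204), and Cd72 is on chromosome 4 (chr4:43446462-43454628), where it overlaps Tesk1 on the other strand. Fcrla overlaps Gm2962 on its own strand, and Fcgr2b and Cd22 overlap Gm38204 and Gm29439 on the other strand, so that reads in shared stretches can be hard to assign.

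Bases before the RefSeq start site are printed for the genes on which the results below turn: the neighbours Fcrl1 and Fcrl5, which differed in direction between B cell subsets, Fcrla, whose level in plasma cells was close to that in B cells, and Lair1, which was highest in myeloid cells. Sequences run 5′ to 3′ on the gene's strand and end before the first annotated exon. Capitals mark GAGGAAG or its reverse complement (a PU.1-type motif) and CAGGTG or its reverse complement (an E-box).
Fcrl1, GRCm38.p6 chr3:87376137-87376386, plus strand: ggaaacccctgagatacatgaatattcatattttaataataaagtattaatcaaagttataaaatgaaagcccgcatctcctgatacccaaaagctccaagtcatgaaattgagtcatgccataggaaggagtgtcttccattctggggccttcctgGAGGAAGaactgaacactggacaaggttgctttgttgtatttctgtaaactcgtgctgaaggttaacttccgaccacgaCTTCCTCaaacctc
Fcrl5, GRCm38.p6 chr3:87435532-87435772, plus strand: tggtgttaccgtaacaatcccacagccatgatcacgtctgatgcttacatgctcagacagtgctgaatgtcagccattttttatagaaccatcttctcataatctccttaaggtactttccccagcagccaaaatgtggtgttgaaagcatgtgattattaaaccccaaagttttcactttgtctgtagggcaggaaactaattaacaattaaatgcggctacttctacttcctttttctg
Fcrla, GRCm38.p6 chr1:170927584-170927833, minus strand: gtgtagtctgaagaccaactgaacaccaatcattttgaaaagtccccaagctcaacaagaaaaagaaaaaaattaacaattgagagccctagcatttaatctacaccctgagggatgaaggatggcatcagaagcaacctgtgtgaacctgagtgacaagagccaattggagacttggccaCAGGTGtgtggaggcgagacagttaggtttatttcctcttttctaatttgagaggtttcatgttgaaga
Lair1, GRCm38.p6 chr7:4063205-4063454, minus strand: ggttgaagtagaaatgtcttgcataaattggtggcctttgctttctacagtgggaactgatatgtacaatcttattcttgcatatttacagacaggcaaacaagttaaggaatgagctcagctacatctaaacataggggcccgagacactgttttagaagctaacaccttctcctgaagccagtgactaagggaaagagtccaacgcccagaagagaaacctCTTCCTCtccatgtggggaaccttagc
All 8 genes had a RefSeq window, which runs from 250 bases before to 50 after the start, and 4 motifs were searched in it on both strands. The octamer ATGCAAAT was in 1.74% of 32851 promoter windows and in none of the 8 genes. GAGGAAG was in 13.6% of windows and in those of Fcrl1 (93 and 14 bases before the start), Lair1 (27 bases), Cd72 (48 bases) and Siglecg (213 bases). The window of another RefSeq start of Siglecg held none of the 4 motifs. The EBF-type motif CCCNNGGG was in 13.7% of windows and in that of Cd22 (48 bases), and CAGGTG was in 20.2% and in those of Fcrla (69 bases) and Cd22 (245 bases). No matches overlapped each other in these genes, and Fcrl5 and Fcgr2b had none of the 4 motifs. The windows of Fcgr2b and Cd22 lie inside the gene spans given above, so they do not show bases before the annotated gene.

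Across cell classes, 7 of the 8 genes were higher in B cells than in myeloid cells (monocytes/macrophages, neutrophils and myeloid progenitors) of the same 13 spleens, and Lair1 was lower. Fcrla averaged 178 ± 75.4 CPM in B cells and 0.563 ± 0.667 in myeloid cells (SD, n = 13 spleens), a log2 difference of 8.29 (SE 0.350, edgeR adjusted p = 2.46e-12). Cd22 averaged 66.4 ± 36.1 against 0.161 ± 0.271 CPM (log2 difference 7.86), Cd72 223 ± 131 against 1.22 ± 1.44 (7.42) and Fcrl5 96.95 ± 60.9 against 0.606 ± 1.08 (7.37). Siglecg averaged 183 ± 79.8 against 4.17 ± 3.85 CPM (5.02) and Fcrl1 35.7 ± 24.5 against 1.66 ± 1.70 (4.23). The B and myeloid levels of these 6 genes did not overlap over the 13 spleens, where 5.82% of 10373 genes tested were higher without overlap. Their myeloid values rest on few molecules, with 27 UMIs of Fcrl5, 26 of Fcrla and 12 of Cd22 in all myeloid cells of the spleens.

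Fcgr2b and Lair1 departed from that pattern. Fcgr2b, which myeloid cells are known to use as well, averaged 272 ± 155 CPM in B cells and 91.6 ± 33.4 in myeloid cells, with overlapping ranges and a log2 difference of 1.18 (SE 0.263, adjusted p = 8.48e-04). Within the myeloid compartment it lay between 84.2 and 394 CPM in monocytes/macrophages of 10 spleens and between 33.2 and 94.3 in neutrophils of 11 spleens. Lair1 averaged 45.7 ± 19.8 CPM in myeloid cells and 3.07 ± 2.24 in B cells (log2 difference -4.36, SE 0.417, edgeR adjusted p = 1.05e-07). Its ranges of 21.2 to 94.2 and 0.136 to 6.05 CPM did not overlap, where 6.73% of all genes tested were lower in B cells without overlap. All 8 genes passed the test, 7 of them higher in B cells, where 67.9% of 10373 genes tested passed, 35.7% higher and 32.2% lower. The count of 8 was the same when any 1 spleen, Eµ-PRMT5 spleen 4 included, was left out. In the T cells of the same libraries, a class that should lack most of these receptors, the median level was 0.634% of the B cell level for Fcrl1, 0.210% for Fcrl5, 0.176% for Fcrla, 0.204% for Siglecg, 3.82% for Cd22, 7.0% for Fcgr2b and 9.35% for Cd72. Lair1 went the other way, with a median T cell level of 265% of the B cell level (33.0% to 3511%). The 52 T cells of Eµ-PRMT5 spleen 4 held Fcrla at 59.0 CPM, the highest T cell value of that gene.

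**Figure D1:**
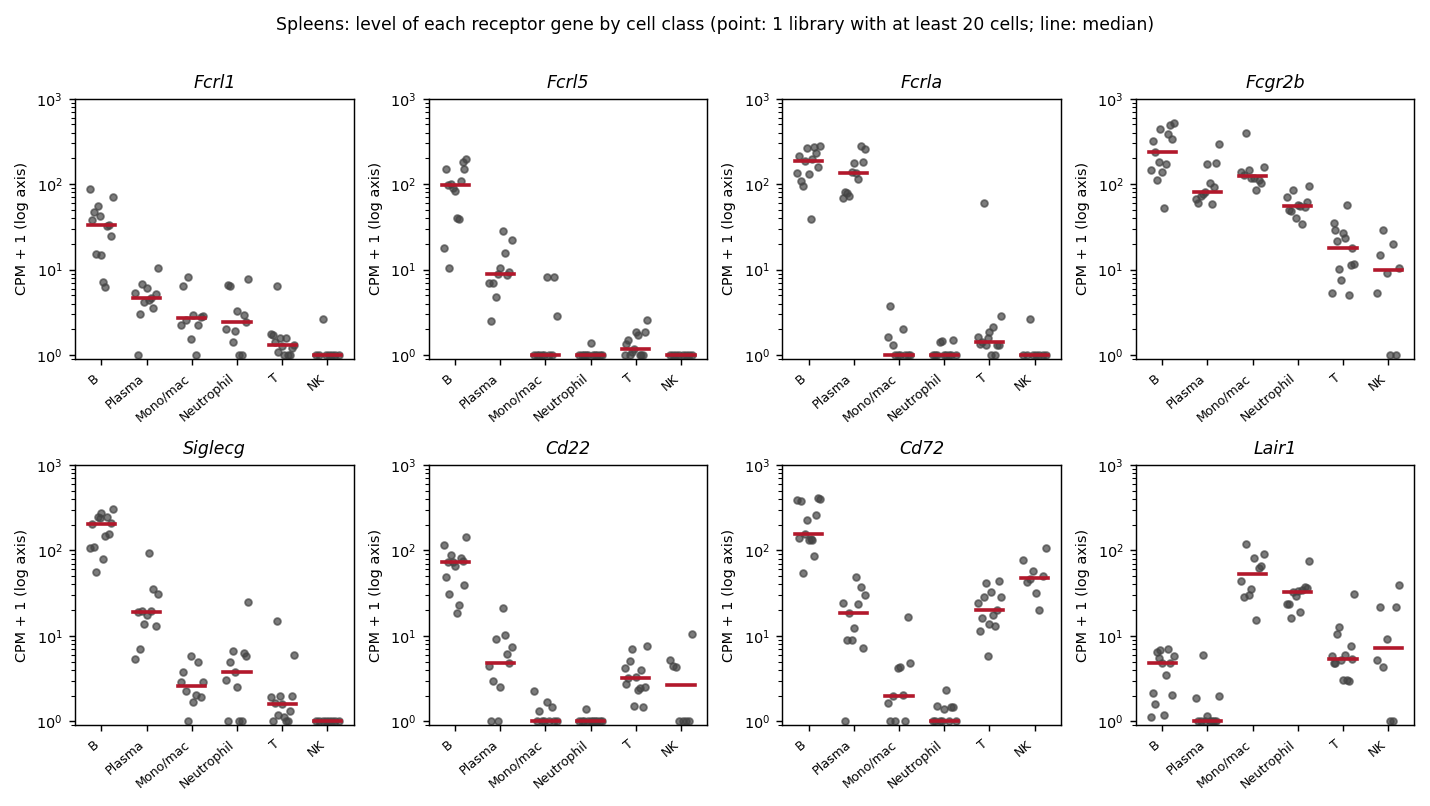
Level of each gene by cell class in spleens, as CPM + 1 on a log axis (each point is 1 library with at least 20 cells of the class, and the red line is the median). Fcrla lies at 37.9 to 277 CPM in B cells and 67.4 to 281 in plasma cells, and Fcgr2b is spread over B, plasma and myeloid cells. Among the classes drawn, Lair1 is highest in monocytes/macrophages and neutrophils, with spleen ranges of 14.4 to 119 and 14.97 to 74.1 CPM. Myeloid progenitors, which are not drawn, held Lair1 at 26.2 to 113 CPM in 8 spleens.

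Plasma cells, the antibody-secreting end of the lineage, had lower levels of 5 of the 8 genes than B cells of the same 11 spleens. Cd22 averaged 5.48 ± 5.83 CPM in plasma cells and 68.3 ± 38.4 in B cells (log2 difference -3.06, SE 0.358, edgeR adjusted p = 9.56e-06). Cd72 ranged from 0 to 47.6 CPM in plasma and from 53.1 to 393 in B cells (-2.68). These ranges did not overlap, where 2.57% of all genes tested were lower without overlap. Siglecg averaged 23.9 ± 24.2 against 183 ± 86.6 CPM (-2.41), Fcrl5 10.4 ± 7.77 against 84.4 ± 57.2 (-2.15) and Fcrl1 3.97 ± 2.41 against 37.1 ± 26.5 (-2.09). All 5 were lower in plasma cells in 11 of 11 spleens. Of 9900 genes tested 45.4% passed, 23.9% lower and 21.5% higher. Lair1 was too low to be tested.

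Fcrla, the intracellular member, was the exception. Its plasma cell level in CPM was 67.4, 80.1, 78.4, 72.1 and 138 in the 5 Eµ-PRMT5 spleens. The 4 Eµ-TCL1 spleens held 176, 133, 115 and 281 CPM, and Eµ-PRMT5/TCL1 spleens 1 and 4 held 182 and 256 CPM. The B cell levels of the same spleens were 133, 213, 108, 93.3 and 188, then 267, 130, 37.9 and 194, then 274 and 277 CPM. In CPM the plasma cell level was the higher of the pair in 3 of 11 spleens, all of them Eµ-TCL1. Immunoglobulin genes took a median of 33.0% of plasma cell UMIs (7.16% to 55.2%) and 1.75% of B cell UMIs (0.925% to 3.19%), and a gene's CPM is a share of the total that includes them. With immunoglobulin UMIs left out of the total, Fcrla averaged 215 ± 94.0 CPM in plasma cells and 178 ± 82.8 in B cells and was higher in 8 of 11 spleens. The call for Fcrla depended on this scaling: edgeR with TMM factors gave a log2 difference of 0.51 (SE 0.163, adjusted p = 0.0190), and library totals without TMM gave -0.0024 (adjusted p = 0.991). Without a filter on low counts the value was 0.45 (adjusted p = 0.0535).

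Fcgr2b averaged 113 ± 72.4 CPM in plasma cells and 246 ± 151 in B cells, and plasma cells were lower in 10 of 11 spleens. Its difference of -0.29 did not pass with TMM factors (SE 0.121, adjusted p = 0.0637) and was -0.79 with library totals (adjusted p = 7.28e-04). It also passed with TMM factors without Eµ-PRMT5 spleen 1 (adjusted p = 0.0284) or without Eµ-TCL1 spleen 3 (adjusted p = 0.0134). In the latter spleen alone the plasma cell level of 57.5 CPM was above the B cell level of 51.0 CPM.

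Within B cells, levels differed several-fold between mice of 1 genotype. Fcgr2b, the inhibitory IgG receptor, was at 146, 319, 238, 111 and 179 CPM in the 5 Eµ-PRMT5 spleens. The 4 Eµ-TCL1 spleens held 444, 136, 51.0 and 172 CPM and the 4 Eµ-PRMT5/TCL1 spleens held 389, 492.5, 337 and 521 CPM. The 4 Eµ-PRMT5/TCL1 spleens all lay above the 5 Eµ-PRMT5 spleens, where 1.38% of all genes tested were higher without overlap. Eµ-TCL1 spleen 1 lay among the Eµ-PRMT5/TCL1 spleens. In lymph nodes Fcgr2b was at 306, 125 and 106 CPM (Eµ-TCL1) and 255, 395, 176 and 201 CPM (Eµ-PRMT5/TCL1), where the groups overlapped.

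Fcrl5 was at 17.02, 150, 95.8, 9.44 and 99.2 CPM in B cells of the Eµ-PRMT5 spleens. It was at 88.7, 83.2, 39.6 and 37.6 CPM with TCL1 alone (Eµ-TCL1 spleens) and at 109, 183, 149 and 198 CPM with both transgenes. Every Eµ-PRMT5/TCL1 spleen was above every Eµ-TCL1 spleen, and the Eµ-PRMT5 spleens ran from the lowest value of the series to 150. In lymph nodes Fcrl5 was at 84.7, 69.5 and 35.4 CPM (Eµ-TCL1) and 119, 168, 137 and 143 CPM (Eµ-PRMT5/TCL1), again with no overlap. Of all genes tested, 1.98% in spleens and 2.18% in nodes were higher in Eµ-PRMT5/TCL1 than in Eµ-TCL1 libraries without overlap. The same mice gave both tissues, so the node values are not independent of the spleen values.

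Fcrla in B cells was at 133, 213, 108, 93.3 and 188 CPM (Eµ-PRMT5 spleens), 267, 130, 37.9 and 194 CPM (Eµ-TCL1 spleens) or 274, 233, 159 and 277 CPM (Eµ-PRMT5/TCL1 spleens). The 3 groups overlapped, as did the nodes at 274, 144 and 87.6 (Eµ-TCL1) and 143, 257, 74.0 and 148 CPM (Eµ-PRMT5/TCL1). Fcrl1 was at 86.6, 37.2, 46.8, 14.2 and 55.2 CPM (Eµ-PRMT5 spleens), 41.1, 13.97, 6.11 and 5.33 CPM (Eµ-TCL1 spleens) or 31.3, 31.8, 24.01 and 70.03 CPM (Eµ-PRMT5/TCL1 spleens). In nodes Fcrl1 was at 35.3, 7.87 and 7.68 CPM (Eµ-TCL1) and 29.2, 39.3, 41.6 and 31.6 CPM (Eµ-PRMT5/TCL1). Mouse 1 of the Eµ-TCL1 group held the highest Fcrl1 value of that group in both tissues.

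Among the sialic acid receptors, Siglecg was at 107, 205, 109, 55.1 and 247 CPM (Eµ-PRMT5 spleens), 241, 276, 78.2 and 148 CPM (Eµ-TCL1 spleens) or 244.4, 156, 209 and 305 CPM (Eµ-PRMT5/TCL1 spleens). Cd22 was at 116, 48.2, 72.6, 30.1 and 86.8 CPM, then 72.1, 65.1, 17.4 and 21.7, then 80.2, 73.3, 38.3 and 141 in the same order. Both overlapped between all groups. In nodes Siglecg was at 238, 210 and 99.9 CPM (Eµ-TCL1) and 150, 158, 147 and 143 CPM (Eµ-PRMT5/TCL1), a narrow range in the latter group, and Cd22 was at 32.4, 44.2 and 35.0 against 50.7, 68.4, 70.2 and 33.5 CPM.

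Cd72 was at 391, 139, 381, 53.1 and 156 CPM (Eµ-PRMT5 spleens), 226, 130, 133 and 132 CPM (Eµ-TCL1 spleens) or 85.5, 259, 414 and 393 CPM (Eµ-PRMT5/TCL1 spleens), so that its widest spread was within the genotypes that carry PRMT5. In nodes it was at 205, 127 and 61.6 CPM (Eµ-TCL1) and 284, 112, 400 and 101 CPM (Eµ-PRMT5/TCL1). Lair1 stayed between 0.136 and 7.21 CPM in B cells of all 20 libraries. Ordered by group medians, Eµ-PRMT5/TCL1 spleens came first for Fcrl5, Fcrla, Fcgr2b, Siglecg, Cd22, Cd72 and Lair1, and Eµ-PRMT5 spleens came first for Fcrl1. For all 8 genes each group overlapped the next in that order.

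The comparison of Eµ-PRMT5/TCL1 with Eµ-TCL1 B cells asks what PRMT5 adds to TCL1. In spleens all 8 genes had the higher fitted level in Eµ-PRMT5/TCL1 mice, with a median log2 difference of 0.77 (all genes -0.0022). No gene passed the test. Siglecg and Lair1 changed sign in fits with 1 library left out. The directions are not independent, since B cell levels of some of the 8 genes correlate over libraries (Pearson r 0.859 for Fcgr2b and Fcrla). Fcrl5 averaged 160 ± 39.5 against 62.3 ± 27.4 CPM (SD, n = 4 and 4), a log2 difference of 1.26 (SE 0.633, edgeR adjusted p = 0.981). Fcgr2b averaged 435 ± 86.2 against 201 ± 170 CPM (1.00, SE 0.491, adjusted p = 0.981). The other 6 genes had differences of 0.19 (Siglecg) to 1.07 (Fcrl1). Over all 11843 genes 0% passed with edgeR, 584 genes had an unadjusted p under 0.05 and DESeq2 called 26 genes, none of the 8 among them. Fcrl5 was the only 1 of the 8 without overlap, which is 1 gene where 1.98% of all genes were higher without overlap.

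In lymph nodes Fcrl5 averaged 142 ± 19.98 CPM in Eµ-PRMT5/TCL1 and 63.2 ± 25.2 in Eµ-TCL1 mice (n = 4 and 3), a log2 difference of 1.27 (SE 0.286, edgeR adjusted p = 0.527). DESeq2 called this difference (1.28, adjusted p = 0.00735) and edgeR did not. Fcrl1 averaged 35.4 ± 5.95 against 16.95 ± 15.9 CPM (1.26, SE 0.507, adjusted p = 0.665). The remaining genes had differences between -0.20 (Siglecg) and 0.87 (Cd72), 5 of the 8 were higher, and the median was 0.62 (all genes 0.022). Fcrla and Lair1 changed sign in fits with 1 library left out. With edgeR 0% of 11080 genes passed, 812 had an unadjusted p under 0.05, and DESeq2 called 99. Fcrl5 was the 1 gene of the 8 higher without overlap, where 2.18% of all genes were.

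Adding TCL1 to PRMT5 was read from Eµ-PRMT5/TCL1 against Eµ-PRMT5 spleens, which shares its first group with the comparison above. Fcgr2b averaged 435 ± 86.2 against 199 ± 82.0 CPM (n = 4 and 5), a log2 difference of 1.18 (SE 0.461, edgeR adjusted p = 0.464), without overlap, where 1.38% of genes were higher without overlap. Fcrl5 was higher by 1.21 (SE 0.593, adjusted p = 0.541) with overlapping ranges. Fcrl1 was lower by 0.29 on the log2 scale (adjusted p = 0.901), and 7 of the 8 genes were higher, with a median of 0.57 (all genes -0.040). Fcrl1 and Cd22 changed sign in fits with 1 library left out. No gene passed in edgeR (0% of 11843, 1135 with an unadjusted p under 0.05), and DESeq2 called 151 genes and none of the 8. Without Eµ-PRMT5 spleen 4 edgeR called 24 genes and none of the 8, and Fcgr2b was at 1.09 (adjusted p = 0.253) and Fcrl5 at 0.93 (adjusted p = 0.321).

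The single transgenes were compared in the same way. In Eµ-PRMT5 against Eµ-TCL1 spleens 4 of the 8 were higher and 4 lower, with a median of -0.062 (all genes 0.011). Fcrl1 had the smallest adjusted p of the 8, at 48.0 ± 26.5 against 16.6 ± 16.8 CPM (n = 5 and 4), a log2 difference of 1.36 (SE 0.592, edgeR adjusted p = 0.235). Siglecg was at 144 ± 78.7 against 186 ± 89.8 CPM (-0.49, SE 0.404, adjusted p = 0.532) and Fcrl5 differed by 0.054 (SE 0.595, adjusted p = 0.971). None of the 8 passed, where 0.00844% of 11843 genes (1 gene) did. Without Eµ-PRMT5 spleen 4 edgeR called 734 genes and still none of the 8, with Fcrl1 at 1.58 (adjusted p = 0.104), Fcrl5 at 0.33 (adjusted p = 0.692), Siglecg at -0.33 (adjusted p = 0.609) and Fcgr2b at -0.091 (adjusted p = 0.923). DESeq2 called 856 genes over all libraries, none of the 8 among them. This comparison shares its Eµ-TCL1 and Eµ-PRMT5 spleens with the others, so their values are not independent.

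**Figure D2:**
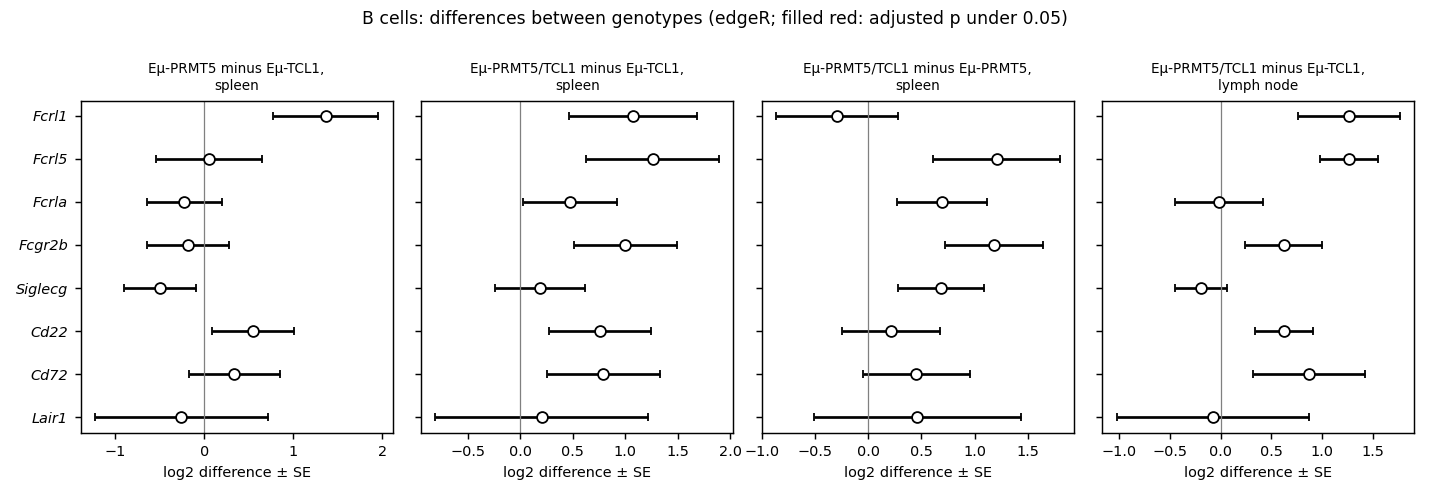
Log2 difference of each gene between genotypes in B cells, with SE, from edgeR (open circles did not pass an adjusted p of 0.05). No point is filled, and Fcrl5 stands at 1.26 in spleens and 1.27 in lymph nodes for Eµ-PRMT5/TCL1 against Eµ-TCL1.

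Lymph node B cells were compared with spleen B cells of the same 7 mice. All 8 genes had a lower fitted level in the node, with a median log2 difference of -0.42 (all genes 0.018), and none passed in edgeR. The difference of Fcrl1 changed sign in fits with 1 library left out. Siglecg was lower in the node in 7 of 7 mice, with pairs of 241 and 238, 276 and 210, and 148 and 99.9 CPM (spleen and node) in Eµ-TCL1 mice and 305 and 150, 244.4 and 158, 209 and 147, and 156 and 143 CPM in Eµ-PRMT5/TCL1 mice. Its log2 difference was -0.44 (SE 0.119, edgeR adjusted p = 0.194). Fcgr2b was lower in 6 of 7 mice, at 223 ± 103 CPM in nodes and 356 ± 151 in spleens (-0.63, SE 0.163, edgeR adjusted p = 0.174). In the seventh mouse, the one with the tag RT, it was at 389 CPM in the spleen and 395 in the node. Fcrl5, Cd72 and Lair1 were also lower in 6 of 7 mice, Fcrla and Cd22 in 5 and Fcrl1 in 4. The mouse with the tag RT was the exception for Fcrl5 (109 and 168 CPM, spleen and node) and Cd72 (85.5 and 112 CPM). For Lair1 the exception was the mouse of Eµ-TCL1 spleen 1, and for Fcrla those of Eµ-TCL1 spleens 1 and 2. For Cd22 the exceptions were the mice of Eµ-TCL1 spleen 4 and Eµ-PRMT5/TCL1 spleen 3. For Fcrl1 they were these and the mouse with the tag RT. The differences of Fcrla (-0.51, edgeR adjusted p = 0.277) and Lair1 (-0.92, adjusted p = 0.246) exceeded that of Fcrl5 (-0.12, adjusted p = 0.780). That of Lair1 rests on few node UMIs, 55 in B cells of Eµ-TCL1 and 137 in those of Eµ-PRMT5/TCL1 nodes. The part of free RNA of myeloid cells in it was not tested. DESeq2 called Fcgr2b (-0.62, adjusted p = 0.0144) and Siglecg (-0.43, adjusted p = 0.0154). With edgeR 0.074% of 12169 genes passed (9 genes), 1408 had an unadjusted p under 0.05, and DESeq2 called 323.

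Whether the node change depended on genotype was tested as an interaction. The change of Fcrl5 in Eµ-PRMT5/TCL1 minus that in Eµ-TCL1 mice was 0.14 (SE 0.298) and that of Fcgr2b -0.20 (SE 0.342), with edgeR adjusted p = 1.0 for both. None of the 8 genes had an unadjusted p under 0.05. Over 12169 genes 0% passed, 234 had an unadjusted p under 0.05, and DESeq2 called 0.

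**Figure D3:**
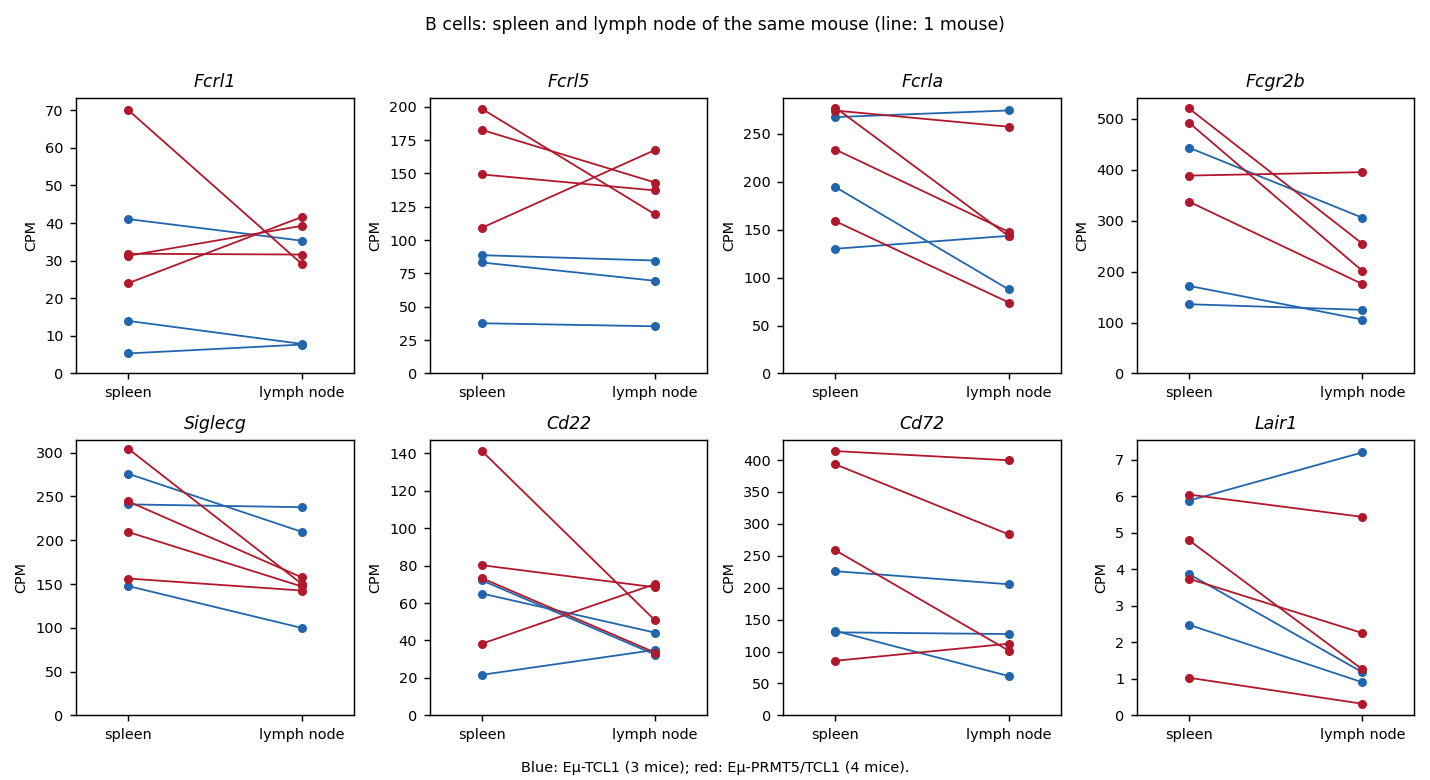
Level of each gene in B cells, in CPM, in the spleen and lymph node of the same mouse (blue, 3 Eµ-TCL1 mice; red, 4 Eµ-PRMT5/TCL1 mice). Siglecg is lower in the node on 7 of 7 lines, Fcgr2b on 6 and Fcrl1 on 4.

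A split by heavy chain V gene compared B cells that used the library's leading V gene with B cells that used others, in the 7 spleens with at least 20 cells of each. The leading gene was the one with the most Ighv UMIs. Leading-V cells were the smaller set in Eµ-TCL1 spleen 3 (355 against 1176 cells) and Eµ-PRMT5 spleen 3 (332 against 831). In Eµ-PRMT5/TCL1 spleen 1 only 934 leading-V and 384 other cells entered, of 4710 with enough Ighv UMIs. Fcrl5 was higher in leading-V cells in 7 of 7 spleens, with pairs (leading and other) of 175 and 98.9, 123 and 88.7, and 112 and 38.3 CPM in Eµ-PRMT5 spleens 2, 3 and 5. The pair was 76.2 and 34.3 CPM in Eµ-TCL1 spleen 3, and 120 and 92.5, 153 and 52.3, and 200 and 107 CPM in Eµ-PRMT5/TCL1 spleens 1, 3 and 4. The log2 difference was 0.93 (SE 0.169, edgeR adjusted p = 0.522). DESeq2 called it (adjusted p = 0.00187), as did edgeR without a filter on low counts (adjusted p = 0.00729). Cd72 was higher by 0.88 (SE 0.255, adjusted p = 0.881), in 6 of 7 spleens.

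All 7 of the genes tested were higher in leading-V cells, with a median of 0.66 (all genes -3e-04), and none passed in edgeR. The difference of Fcrla changed sign in fits with 1 library left out. Fcgr2b had 1 wide pair, 220 CPM in leading-V and 16.9 in other B cells of Eµ-TCL1 spleen 3, and 1 pair the other way, 164 and 263 CPM in Eµ-PRMT5 spleen 5 (0.66 over the 7 spleens, adjusted p = 0.918). Fcrla differed by 0.20 (adjusted p = 0.991). Of 9137 genes 0% passed in edgeR, 499 had an unadjusted p under 0.05, and DESeq2 called 11.

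Fcer2a encodes CD23, the low-affinity IgE receptor, which follicular B cells carry. B cells with a Fcer2a UMI were compared with those without in Eµ-PRMT5 spleens 1, 2, 3 and 5, the 4 spleens with at least 20 of each. Fcrl1 was higher in Fcer2a+ cells in 4 of 4 spleens, with pairs (with and without Fcer2a) of 110 and 68.3, 76.3 and 32.2, 84.4 and 44.4, and 121 and 53.2 CPM. Its neighbour Fcrl5 was lower in 4 of 4, with pairs of 10.5 and 22.2, 66.3 and 161, 41.2 and 99.2, and 8.62 and 102 CPM. The last of these rests on 1 Fcrl5 UMI in 30 Fcer2a+ cells. Fcrl1 rose by 0.91 (SE 0.157, edgeR adjusted p = 0.0131) and Fcrl5 fell by 1.35 on the log2 scale (SE 0.229, adjusted p = 0.0125).

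These calls were lost when Eµ-PRMT5 spleen 2 was left out (adjusted p = 0.081 for Fcrl1 and 0.0703 for Fcrl5) or Eµ-PRMT5 spleen 3 (0.0776 and 0.0521), while the differences stayed near 0.86 to 1.04 and -1.56 to -1.21. Fcgr2b was at 163 ± 71.0 against 232 ± 73.0 CPM (-0.66, SE 0.194, adjusted p = 0.151) and Siglecg at 170 ± 83.0 against 166 ± 74.3 CPM (0.026, adjusted p = 0.999). Of 9224 genes 1.73% passed, 0.791% higher and 0.943% lower, and 2 of the 7 genes tested did. The mean UMIs per cell (with and without Fcer2a) were 5754 and 5223, 6418 and 10010, 5782 and 5240, and 3869 and 8124, higher in Fcer2a+ cells of 2 of the 4 spleens. The part of depth in these differences was not tested.

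**Figure D4:**
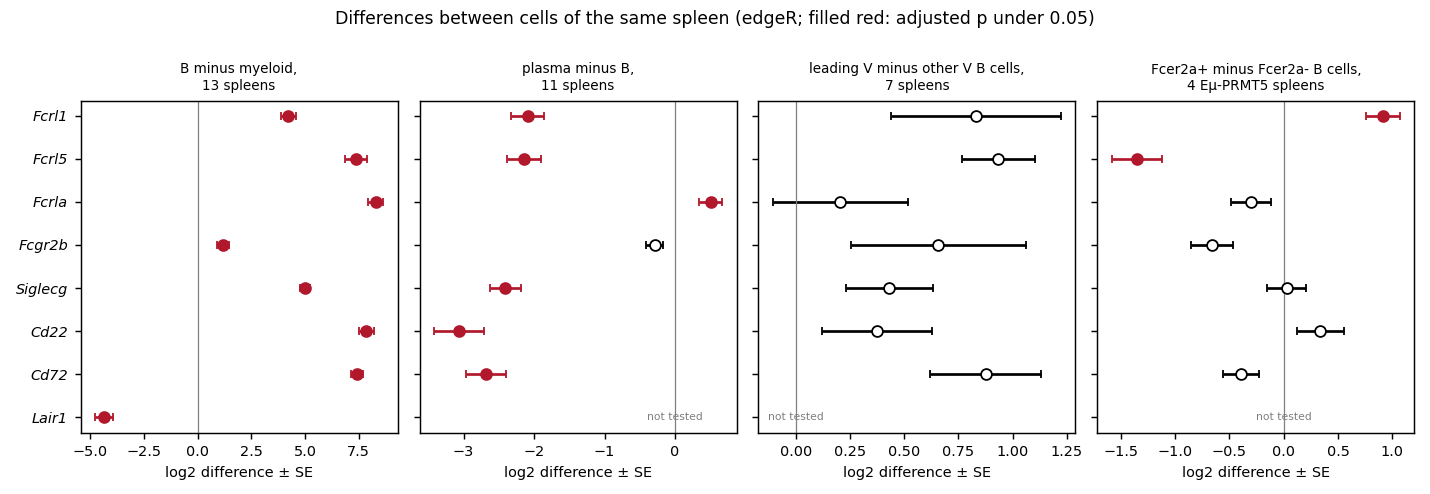
Log2 difference with SE for each gene between cells of the same spleen (edgeR), in B minus myeloid cells, plasma minus B cells, leading-V minus other-V B cells and Fcer2a+ minus Fcer2a- B cells (filled red points passed an adjusted p of 0.05). Fcrl1 and Fcrl5 point the same way in the first 3 panels and opposite ways in the last, at 0.91 and -1.35.

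The share of B cells with a UMI of each gene was read after thinning each cell to 1000 UMIs, with T cells of the same libraries as background. Over 20 libraries the median share was 21.2% for Fcgr2b (T cells 1.33%), 15.1% for Siglecg (0%), 14.9% for Fcrla (0%), 13.3% for Cd72 (1.62%), 9.57% for Fcrl5 (0%), 5.93% for Cd22 (0.199%) and 3.34% for Fcrl1 (0%). Lair1 was seen in 0.185% of B cells and 0.469% of T cells, which held more of this gene than B cells and so give no background for it. Median depth before thinning was 4275 to 18446 UMIs in B cells and 2800 to 10442 in T cells. No cell was left out by the thinning. Fcgr2b was also seen in a median of 13.04% of monocytes/macrophages and Lair1 in 4.83%, over 13 libraries with median depths of 5365.5 to 14700 UMIs.

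Myeloid cells of the 3 genotypes were compared for the genes they hold, Fcgr2b and Lair1. Fcgr2b averaged 66.7 ± 13.8 CPM with TCL1 alone, 99.1 ± 42.6 with PRMT5 alone and 107 ± 24.7 with both (n = 4, 5 and 4 spleens). The highest Eµ-PRMT5 value, 170 CPM, was that of Eµ-PRMT5 spleen 4. All 4 Eµ-PRMT5/TCL1 spleens (89.6 to 143) lay above the Eµ-TCL1 spleens (47.7 to 80.7), a log2 difference of 0.51 (SE 0.271, edgeR adjusted p = 0.999), where 2.36% of genes were higher without overlap. Eµ-PRMT5 against Eµ-TCL1 gave 0.58 (SE 0.260, adjusted p = 1.0) and Eµ-PRMT5/TCL1 against Eµ-PRMT5 gave -0.065 (adjusted p = 0.999). Lair1 averaged 40.7 ± 14.6, 41.2 ± 18.7 and 56.3 ± 26.1 CPM in the same order, with log2 differences of 0.066 (Eµ-PRMT5 against Eµ-TCL1), 0.30 (Eµ-PRMT5/TCL1 against Eµ-TCL1) and 0.23 (against Eµ-PRMT5, adjusted p = 0.999 to 1.0). Each of the 3 comparisons called 0% of 9437 genes, with 259, 158 and 343 genes at an unadjusted p under 0.05 and 1, 0 and 2 called by DESeq2. Only 26 to 1198 myeloid cells were in a spleen. The pooled Fcgr2b level depends on the mix of myeloid classes, which varied between spleens, and the part of this mix was not tested. By class, Fcgr2b was at 102 to 157 CPM in Eµ-PRMT5/TCL1 and 84.2 to 117 in Eµ-TCL1 monocytes/macrophages (n = 3 and 3). In neutrophils it was at 33.2 to 94.3 against 39.1 to 56.2 CPM (n = 4 and 3). Only in myeloid progenitors, at 114 to 161 against 65.7 to 83.9 CPM (n = 3 and 3), did these groups not overlap.

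Plasma cells were compared likewise, and at least 20 of them were found in 2 of the Eµ-PRMT5/TCL1 spleens and in all 9 others (Eµ-PRMT5/TCL1 spleens 2 and 3 held 2 and 8). Fcgr2b was at 65.7, 59.0, 71.1, 76.4 and 79.0 CPM (Eµ-PRMT5), 171, 102, 57.5 and 90.7 CPM (Eµ-TCL1) or 175 and 292 CPM (Eµ-PRMT5/TCL1), the last pair above all others. Its log2 difference in Eµ-PRMT5/TCL1 was 1.24 (SE 0.407, edgeR adjusted p = 0.950) against Eµ-TCL1 and 1.22 (SE 0.389, adjusted p = 0.942) against Eµ-PRMT5. Fcrla gave 0.47 (adjusted p = 0.953) and 0.84 (adjusted p = 0.942) in the same comparisons, which share the 2 Eµ-PRMT5/TCL1 spleens. Against Eµ-TCL1, Fcgr2b of the 6 genes tested was higher without overlap, where 2.17% of all genes were. Against Eµ-PRMT5, Fcgr2b, Fcrla and Fcrl5 were, where 12.1% of all genes were. The gap of Fcrl5 was narrow, from 7.9 CPM (5 UMIs) in Eµ-PRMT5 spleen 5 to 8.44 CPM (22 UMIs) in Eµ-PRMT5/TCL1 spleen 1. Each of the 3 plasma cell comparisons called 0% of 8653 genes, with 952 (Eµ-PRMT5 against Eµ-TCL1), 338 and 434 at an unadjusted p under 0.05 and 111, 13 and 35 called by DESeq2, none of the 8 genes among them.

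Other genes of the pathway were read from 3 lists: 12 inhibitory signalling genes, 16 other inhibitory receptors and 11 other Fc receptors and Fc-receptor-like genes. None of them passed in any comparison of genotypes or tissues. Against myeloid cells, where 35.7% of all genes tested were higher and 32.2% lower, 6 of 12 signalling genes were higher in B cells and 4 lower, among them Csk (1.12), which holds Src kinases in check, Grb2 (1.09), and, lower, the adaptors Dok2 (-4.92) and Pag1 (-2.99). Of 12 other inhibitory receptors tested 3 were higher and 9 lower, led by the myeloid Siglecs Siglece (-9.25) and Cd33 (-9.16), by Cd300a (-7.46) and by Pirb (-3.41), whose reads can be shared with near-identical family members. Of 6 Fc receptor genes tested 1 was higher, Fcmr for IgM (9.62), and 5 lower, with Fcgr1 (-9.69), Fcgr3 (-8.71) and the shared signalling chain Fcer1g (-5.81) in the lead. The other called genes were named after their values were seen. Of the signalling genes, Cblb (1.78), Ptpn22 (1.55), Inpp5d (0.87) and Dok1 (0.39) were higher, and Ptpn6 (-0.93) and Lyn (-0.51) lower. Cd5 (5.68), Btla (3.70) and Pecam1 (1.80) were the higher receptors. Ceacam1 (-3.56), Lilrb4a (-6.03), Sirpa (-2.48), Cd200r1 (-3.06) and Cd300lf (-1.47) were the other lower receptors. The other lower Fc receptor genes were Fcgrt (-1.502) and Fcgr4 (-1.78).

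In plasma cells, where 23.9% of all genes tested were lower and 21.5% higher than in B cells, 9 of 11 signalling genes tested fell and 1 rose, with Ptpn6 (-1.82), Lyn (-1.31), Csk (-0.81) and Grb2 (-0.61) leading. Of 8 other inhibitory receptors 6 fell and 1 rose, with Cd300lf (-2.08), Ceacam1 (-2.33), Pirb (-2.95) and Cd5 (-1.51) leading, and of 3 Fc receptor genes 1 fell, Fcgr4 (-0.88). The genes that rose, named after their values were seen, were Ptpn22 (1.08) and Pdcd1 (1.86). The median of the signalling list was -0.66 and of all genes -0.072. In Fcer2a+ B cells Ptpn22, a phosphatase of antigen receptor signalling, was lower (-0.98, edgeR adjusted p = 0.0128), as were Cd300lf (-1.95) and Fcer1g (-4.97), the latter at 4.86 CPM with and 101 CPM without Fcer2a. Fcer1g was at 2259 CPM in myeloid cells, and the part of other cells' RNA in this difference was not tested. Fcer2a itself defined that split.

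Across the 20 libraries the B cell levels of Fcgr2b and Fcrla had the highest Pearson r of all pairs in the set (0.859 on log2(CPM + 1)), and those of Cd22 and Fcrl1 the next (0.7995). In the 13 spleens the order was the other way, with 0.906 for Cd22 and Fcrl1 and 0.890 for Fcgr2b and Fcrla. These are descriptions over libraries that share mice and depth. Among 5652 genes with a mean of at least 20 CPM, the most alike were Fcrla, Sla and Hcls1 for Fcgr2b (0.859 to 0.785), Fcgr2b, Slamf6 and Polr3c for Fcrla (0.859 to 0.767), and Evi2a, Kdm4a and Rcn3 for Fcrl5 (0.882 to 0.859). For Siglecg they were Rgs14, Rasgrp1 and Arhgap30 (0.906 to 0.869), for Fcrl1 Ddx3x, Adpgk and Tet2 (0.877 to 0.872) and for Cd22 Naa25, Atp2b1 and Farsa (0.853 to 0.828). For Cd72 they were Ift140, Glul and Marcksl1 (0.790 to 0.769), and for Lair1, at 5653 genes, Fam129c, Stoml1 and Dhrs4 (0.757 to 0.737).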

How the data were processed

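Droplet-based 3′ single-cell RNA-sequencing was measured in 20 libraries. The files deposited by the authors hold whole-number UMI counts for all barcodes, without normalization, from alignment to GRCm38. The submitters' processing notes name Cell Ranger 2.0.1 and Seurat 2.2.1, while the matrix headers name version 3.1.0. From these counts, barcodes at or above a 10th of the 99th percentile of the 3000 largest were kept if they had 200 or more genes and no more than 10% of UMIs from mitochondrial genes. Cells with the highest Scrublet (scanpy 1.11.5) doublet scores were removed, at 0.8% per 1000 cells. This number replaced Scrublet's automatic threshold after that was seen to mark few cells in most libraries (0 to 298 a library). A cell took a class with at least 3 of its markers (plasma 4) at 2 times the share of any other lineage. Leading-V cells had at least 2 Ighv UMIs, 80% or more from the leading gene, and other-V cells at most 20%. UMIs were summed per library and class (at least 20 cells) and tested with edgeR 4.0.16 (quasi-likelihood, TMM, filterByExpr, Benjamini-Hochberg over all genes, threshold 0.05), with the 3 spleen groups in 1 fit. The mouse was a block in tissue and class comparisons. Node and spleen deviations from their group means correlated at 0.257 to 0.684 in all 7 mice. DESeq2 1.42.0 was the alternative.

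Precision depends on the UMIs of a class in a library, so plasma and myeloid values are the least precise. Each library is 1 mouse and tissue, and groups came from the labels. All members were named in every comparison, and of the pathway lists those called, at most 4 a list by smallest adjusted p. Further called genes are marked as named after their values were seen. The members and lists were chosen with earlier results of these data known. The fits were tested on simulated data with 200 changed genes. The outcome of that test is not given here. Effects of alternatives are given at the end.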

Additional observations from a re-analysis of the deposited data

Results flagged for a closer look

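Within groups of 4 to 10 libraries, 4 values of 53 groups tested stood farther from the rest than Dixon's 95% limit, where chance flags about 1 in 20. Cd72 in B cells of Eµ-TCL1 spleen 1 was at 225.9 CPM, with the other 3 spleens at 130.1 to 133.1. Fcrl1 in B cells of Eµ-PRMT5/TCL1 spleen 4 was at 70.03 CPM, with the others at 24.01 to 31.83. Fcrla in plasma cells of Eµ-PRMT5 spleen 5 was at 137.5 CPM, with the others at 67.4 to 80.14. Siglecg in myeloid cells of Eµ-PRMT5/TCL1 spleen 4 was at 16.11 CPM (20 UMIs), with the others at 4.219 to 4.371.

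Levels above the T cell level were seen in classes outside the comparisons. Cd72 reached 47.3 CPM in 510 NK cells pooled over libraries (114 UMIs), with 21.6 in T cells and 172 in B cells. Lair1 reached 36.1 CPM in 73 dendritic cells (35 UMIs), with 7.16 in T cells and 3.27 in B cells. The dendritic cells also held Siglecg at 27.9 CPM (27 UMIs, T cells 0.600, B cells 173), Fcrla at 14.5 CPM (14 UMIs, T cells 0.655, B cells 167) and Fcgr2b at 41.3 CPM (40 UMIs, T cells 18.2, B cells 239). Other excesses over T cells in NK, dendritic and erythroid cells were under 2 CPM.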

How the results depend on the processing

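Over all alternatives of single-gene values, 1159 kept their direction and side of the threshold, 48 reversed, 11 newly passed and 5 no longer passed. The limits are few libraries per group, few plasma and myeloid cells, and free RNA. Replicate numbers of different genotypes did not pair the samples (correlations of deviations from -0.0763 to 0.212), not every library correlated best with its own number, and the replicate block changed no call of the 8 genes and moved the count over all genes from 1 to 30 (Eµ-PRMT5 against Eµ-TCL1 B cells), from 0 to 5 and 2 (plasma cells) and from 0 to 1 (myeloid cells).

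The number of the 8 genes called moved from 0 to 1 with DESeq2 in lymph node genotypes, from 0 to 2 with DESeq2 between node and spleen, from 0 to 1 with DESeq2 and to 1 without a filter on low counts in the V gene split, and between 0 and 3 when 1 spleen was left out of the Fcer2a split (0 without Eµ-PRMT5 spleen 2 or 3). It was 8 in B against myeloid cells and 6 to 7 in plasma against B cells with any 1 spleen left out. In the Fcer2a split Fcgr2b passed without a filter (-0.69, adjusted p = 0.00362), without immunoglobulin genes (-0.67, adjusted p = 0.0450) and without Eµ-PRMT5 spleen 5 (-0.80, adjusted p = 0.0270). Shares of B cells without thinning were 21.5% (Fcrl1), 41.8% (Fcrl5), 63.1% (Fcrla), 72.2% (Fcgr2b), 68.1% (Siglecg), 32.2% (Cd22), 56.7% (Cd72) and 1.84% (Lair1), because deeper cells show more genes.

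Counts over all genes were 1 in the main fit and 856 with DESeq2 (Eµ-PRMT5 against Eµ-TCL1 spleens), 0 and 26 (Eµ-PRMT5/TCL1 against Eµ-TCL1), 0 and 151 (against Eµ-PRMT5), 0 and 99 (nodes) and 9 and 323 (node against spleen, 74 without a filter and 4 without the mouse block). They were 0 and 111, 0 and 13, and 0 and 35 in plasma cells, 0 to 2 in myeloid cells and the interaction, 160 and up to 502 without a filter in the Fcer2a split, and 0 and up to 83 without a filter in the V gene split.

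Scaling by library totals in place of TMM, chosen after seeing the data, moved the median of all genes by -0.48 (plasma against B), 0.23 (B against myeloid), -0.44 and 0.37 (Eµ-PRMT5 against Eµ-TCL1 and Eµ-PRMT5/TCL1 against Eµ-PRMT5 plasma cells) and -0.15 to 0.15 elsewhere. It reversed Fcrla in plasma against B cells (-0.0024), Fcrl5 in the interaction (-0.0104) and Fcgr2b in Eµ-PRMT5/TCL1 against Eµ-PRMT5 myeloid cells (0.0927). Fcgr2b in Eµ-PRMT5 against Eµ-TCL1 plasma cells reversed with library totals (-0.4704), DESeq2 (-0.0036), no filter (-0.0120) and no immunoglobulin genes (-0.0041). The replicate block reversed Fcrl5 (-0.5254) and Fcgr2b (0.0686) in Eµ-PRMT5 against Eµ-TCL1 B cells, Fcrl1 in Eµ-PRMT5/TCL1 against Eµ-PRMT5 B cells (0.0875) and Lair1 in Eµ-PRMT5 against Eµ-TCL1 myeloid cells (-0.0005). No filter reversed Fcrla in nodes (0.0126) and Siglecg in the Fcer2a split (-0.0044). The cause was not tested.

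With 1 library left out, signs changed as follows. In Eµ-PRMT5 against Eµ-TCL1 B cells Fcrl5 ran from -0.3150 to 0.3286, Fcrla from -0.5484 to 0.1848, Fcgr2b from -0.4988 to 0.6001 and Lair1 from -1.1474 to 0.2744. In Eµ-PRMT5/TCL1 against Eµ-TCL1 B cells Siglecg ran from -0.0632 to 0.4156 and Lair1 from -0.1862 to 0.7385. Against Eµ-PRMT5, Fcrl1 ran from -0.5853 to 0.0114 and Cd22 from -0.0317 to 0.4379. In nodes Fcrla ran from -0.3406 to 0.4201 and Lair1 from -0.8049 to 1.2070. Between node and spleen Fcrl1 ran from -0.2141 to 0.1002, and in the interaction Fcrl5 from -0.0895 to 0.2757. In myeloid cells Lair1 ran from -0.3403 to 0.3028 (Eµ-PRMT5 against Eµ-TCL1) and Fcgr2b from -0.1721 to 0.2798 (Eµ-PRMT5/TCL1 against Eµ-PRMT5), and in plasma cells Fcgr2b from -0.1751 to 0.4604 (Eµ-PRMT5 against Eµ-TCL1). In the V gene split Fcrla ran from -0.1378 to 0.3258, and in the Fcer2a split Siglecg from -0.1069 to 0.2025.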
